A study of Mus musculus with 8 samples.

Results

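The 42 genes described here carry out or govern DNA replication and cell division, and they were measured in RAW264.7 cells, an established mouse macrophage-like line that divides in culture. They were picked by gene name for their function, and each was read from its brightest probe on a one-colour Agilent array. All 42 were among the 15439 genes tested. By role they fall into 9 genes of the replicative helicase and origin licensing, 5 of the replication fork and nucleotide supply, 11 cyclins, kinases and E2F factors of G1 and S phase, 12 genes of mitosis, and 5 inhibitors and G-type cyclins. The study asked how macrophage polarization alters expression, and gave the cells interleukin-13 (IL-13), which induces the alternative (M2) state, all-trans retinoic acid (ATRA), the ligand of the retinoic acid receptors, or both. Cells with IL-13 and ATRA together are labelled as having suppressed M2 polarization, cells with IL-13 alone as M2 macrophages, and cells with ATRA alone and control cells, for which no agent is named, as unpolarized. Every treatment had 2 arrays, one taken at 12 h and the other at 24 h, and all cells grew in DMEM with heat-inactivated fetal bovine serum. The labels give no doses. They do not state that the cultures were separate, and every p-value here reflects variation between arrays only, which may be technical.

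Before S phase, Cdc6 and Cdt1 load the hexameric Mcm helicase onto origins, and Gins2, part of the GINS complex, joins it when replication starts. D-type cyclins with Cdk4 or Cdk6, then cyclin E with Cdk2, phosphorylate the retinoblastoma protein and release E2F factors, which drive many replication genes, while cyclin B with Cdk1 starts mitosis. Cdkn1a, Cdkn1b and Cdkn2c encode inhibitors of these kinases. Retinoic acid is known to slow the division of many myeloid cells, and cells that leave the cycle lose replication and mitosis transcripts together.

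Levels below are log2 processed signals after each array was scaled to a common 75th percentile, and a difference of 1 is a doubling. The 75th percentile before scaling ran from 448 to 739, and both ends were IL-13 arrays, at 12 h and at 24 h. Between 54.1% and 61.4% of probes were well above background. All 10 macrophage markers were well above background on all 8 arrays, whereas 4 of 5 fibroblast markers were on 0 arrays. All 12 h arrays lay on one slide and all 24 h arrays on another. Slide and time therefore cannot be told apart, while every treatment was compared with control within each slide. Limma was fitted across all genes with a term for treatment and one for time, and a gene was called where its p, two-sided and adjusted by Benjamini-Hochberg, was under 0.05. With 1 array for each treatment and time, the spread in that test is how far a treatment difference disagreed between 12 h and 24 h. The number of arrays limits the precision, and in bulk RNA fewer cells of a kind and less RNA per cell cannot be told apart.

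No replication or mitosis member was called in any comparison between treatments, which does not show that their levels equalled those in control. The members called were E2f2, Ccng1 and Ccng2. With both agents against control, 1 of 42 members rose and 2 fell, beside 8.45% of all genes called in that comparison (1305 of 15439), of which 3.01% rose and 5.45% fell. The members' share was thus close to that of all genes. Over all genes 464 rose and 841 fell, and under normexp background correction 532 rose and 564 fell. The count over all genes depends on single arrays: it was 224 without the 12 h and 100 without the 24 h control array, 229 without the 12 h and 166 without the 24 h array of both agents, and 691 without either ATRA array. With IL-13 alone 0 members were called, beside 1.28% of all genes, and 6 were higher and 3 lower at an unadjusted p under 0.05, which 10.3% and 13.7% of all genes passed in those directions. The 197 genes called with IL-13 divided into 106 higher and 91 lower, and under quantile normalization into 113 and 52. Without the 12 h or the 24 h control array 2 genes were left, and without another single array 42 to 354. With ATRA alone 0 members were called, beside 1.8% of all genes, and 4 were higher and 4 lower at that unadjusted p, beside 5.75% and 9.4% of all genes. The 278 genes called with ATRA became 64 without the 12 h and 1 without the 24 h control array, and 21 to 169 without another single array. Ccng2 was the 1 member called between both agents and IL-13 alone, where it was lower and 2.58% of all genes were called (1.48% as lower). Between both agents and ATRA alone 0 members were called, beside 0.363% of all genes, with 1 higher and 1 lower at the unadjusted p, beside 5.29% and 7.69% of all genes. For the interaction of IL-13 and ATRA, 0 members passed at either level, beside 0.0194% of all genes at the adjusted p and 3.67% at the unadjusted one.

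Over all 42 members the median log2 difference from control was 0.05 with both agents, 0.13 with IL-13 and −0.02 with ATRA, against medians of −0.026, −0.002 and −0.017 over all genes tested. The 3 comparisons share the control arrays and are therefore not independent. The sign of the first of these medians depends on the scaling, since it was −0.04 under quantile normalization and −0.05 in the authors' deposited table. The medians with IL-13 and ATRA were 0.049 and −0.049 under quantile normalization. From the lowest to the highest of the 8 arrays, the level of a member spanned a median of 0.46 on the log2 scale, against 0.66 over all genes. The span was under 1, a doubling, for 38 of 42 members (90.5%) and for 71.4% of all genes. The 4 wider members were Ccnd2 (2.58), Ccng2 (1.91), Cdt1 (1.17) and E2f2 (1.07). Mcm7, a helicase subunit, had the narrowest span, 0.24.

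**Figure D1:**
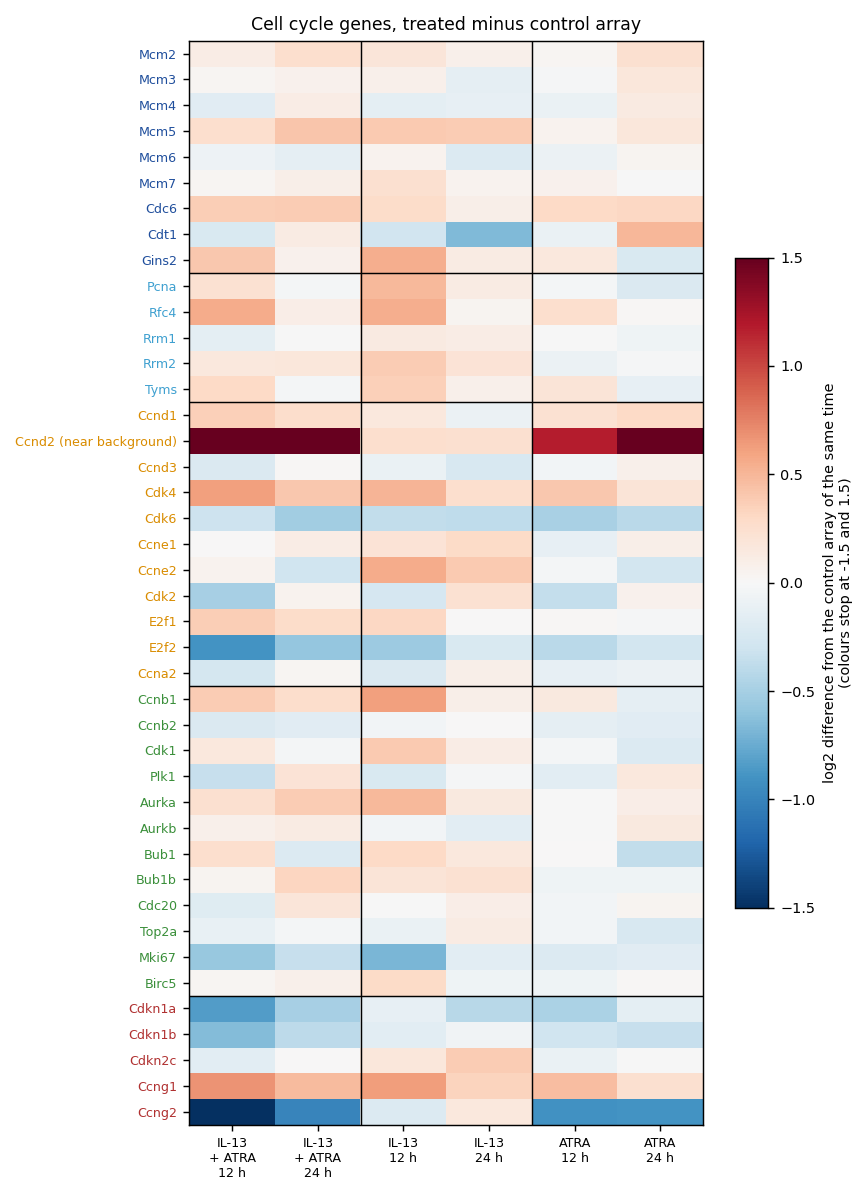
Log2 difference of each treated array from the control array of the same time (colour, from −1.5 to 1.5) for the 42 members in rows, grouped by role with coloured names, and 6 treated arrays in columns. Most cells are pale, and the darkest blue is Ccng2 with both agents at 12 h (−1.62); Ccnd2, whose span is the widest, was close to background on most arrays.

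Of the 9 licensing and helicase genes, 0 were called in the 5 comparisons between treatments, beside 0.363% to 8.45% of all genes. At those shares 0 calls in 9 genes do not set these genes apart from the rest. Their median difference was 0.06 with both agents, 0.13 with IL-13 and 0.07 with ATRA, and under quantile normalization these were −0.04, 0.006 and 0.01. Mcm5, a helicase subunit, reached 14.45 at 12 h and 14.58 at 24 h with both agents, 14.59 and 14.55 with IL-13, 14.24 and 14.34 with ATRA, and 14.20 and 14.17 in control. Both arrays of both agents and of IL-13 thus lay above all control and ATRA arrays, by a margin that did not pass the adjustment. The difference from control was 0.34 ± 0.11 with both agents (limma, SE, adjusted p = 0.123) and 0.39 ± 0.11 with IL-13 (adjusted p = 0.137). Cdc6, the loader of the helicase, stood at 11.00 and 11.03 with both agents, 10.91 and 10.74 with IL-13, 10.93 and 10.96 with ATRA, and 10.63 and 10.65 in control. Its 2 control arrays were the lowest of the 8, and the difference with both agents was 0.37 ± 0.11 (limma adjusted p = 0.104). A second Cdc6 probe, also well above background on all 8 arrays, gave 0.01 with both agents, −0.14 with IL-13 and 0.15 with ATRA.

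Cdt1, the partner of Cdc6 in loading, was the widest of the licensing genes because of 1 array. It measured 14.25 and 14.15 with both agents, 14.19 and 13.37 with IL-13, 14.38 and 14.54 with ATRA, and 14.48 and 14.03 in control. The value of 13.37 came from the IL-13 array at 24 h, which also had the highest 75th percentile of all arrays. The fitted difference with IL-13 was −0.48 ± 0.24 (limma adjusted p = 0.284), and without that array it was −0.13. Whether that array's scaling has a part in it was not tested. The remaining helicase subunits moved little. Over the 3 treatments, the differences from control of Mcm2, Mcm3, Mcm4, Mcm6 and Mcm7 lay between −0.14 (Mcm4 with IL-13) and 0.18 (Mcm2 with both agents). Gins2 was at 0.23 ± 0.14 with both agents, 0.33 ± 0.14 with IL-13 and −0.04 ± 0.14 with ATRA.

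The 5 genes of the fork and of nucleotide supply also gave 0 calls, beside 0.363% to 8.45% of all genes. Pcna, the sliding clamp that tethers DNA polymerases, was at 15.50 at 12 h and 15.49 at 24 h with both agents, 15.76 and 15.64 with IL-13, 15.25 and 15.30 with ATRA, and 15.27 and 15.52 in control. The IL-13 arrays were the 2 highest and the ATRA and control arrays overlapped. Its difference with IL-13 was 0.30 ± 0.13 (limma adjusted p = 0.221). All 5 genes were higher than control on both IL-13 arrays, as were 5333 of 15439 over all genes. The median of the 5 was 0.38 at 12 h and 0.11 at 24 h. The fitted median of 0.30 was 0.19 under quantile normalization, and 4 of 5 were higher with the mean of all probes of a gene. With IL-13, 10.3% of all genes were higher at an unadjusted p under 0.05, as was 1 of these 5, Rrm2, a subunit of ribonucleotide reductase (0.29 ± 0.11, adjusted p = 0.202). Rfc4, a subunit of the clamp loader, had a difference of 0.33 ± 0.16 with both agents, and Rrm1, the partner of Rrm2, one of −0.08 ± 0.11. For Tyms, which makes thymidylate, the probes disagreed: the one used gave 0.14 with both agents, another gave 0.15 and the remaining one gave −0.65, and with IL-13 they gave 0.22, 0.27 and −0.60 in that order.

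Promoter motifs were counted for each role, and the shares were not tested against each other. RefSeq promoters of mouse build GRCm38.p6, from 250 bases before to 50 bases after the transcription start, were matched for 35 of the 42 members. An E2F motif (TTTCCCGC, TTTGGCGC, TTTGCCGC or TTTCGCGC, on either strand) was found in 6 of 7 matched licensing genes (85.7%), in 1 of 11 matched mitosis genes (9.09%) and in 2.6% of all 27025 genes with a promoter. A CHR motif (TTTGAA or TTTAAA), which the DREAM complex binds in genes of late cell cycle phases, was found in 2 of 7 licensing genes (28.6%), 10 of 11 mitosis genes (90.9%) and 30.6% of all genes. CCAAT, bound by NF-Y, was in 5 of 7 licensing genes (71.4%), 10 of 11 mitosis genes (90.9%) and 41.1% of all genes. A match describes letters and not a bound site. The 250 bases before the start of Mcm5 and of Ccnb2, a mitotic cyclin, are shown as an example of each role, with every match in capitals.
Mcm5, chr8:75109259-75109508, plus strand: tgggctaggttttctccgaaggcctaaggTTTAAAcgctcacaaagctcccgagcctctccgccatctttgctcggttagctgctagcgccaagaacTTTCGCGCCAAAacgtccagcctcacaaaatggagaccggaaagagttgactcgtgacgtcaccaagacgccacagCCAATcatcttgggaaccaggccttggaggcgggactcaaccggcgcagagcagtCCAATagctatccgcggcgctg
Ccnb2, chr9:70421555-70421804, minus strand: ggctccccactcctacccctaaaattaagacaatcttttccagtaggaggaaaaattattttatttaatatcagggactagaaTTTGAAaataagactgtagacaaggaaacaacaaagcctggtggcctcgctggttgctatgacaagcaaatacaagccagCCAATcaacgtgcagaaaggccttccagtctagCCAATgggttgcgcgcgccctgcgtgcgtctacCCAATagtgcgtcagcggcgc
In Mcm5 the first run of capitals is a CHR match, the long run holds 2 overlapping E2F matches on opposite strands, and the last 2 runs are CCAAT. In Ccnb2 the first run is a CHR match, followed by 3 CCAAT matches at 87, 54 and 21 bases before the start.

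The 12 mitosis genes gave 0 calls in any treatment comparison, beside 0.363% to 8.45% of all genes. At those shares 0 calls in 12 genes do not set these genes apart from the rest. Their median difference was 0.04 with both agents, 0.08 with IL-13 and −0.04 with ATRA, and quantile normalization turned the first of these to −0.03 and brought that for IL-13 to −0.0002, while the mean of all probes gave −0.01 with ATRA. Each of the 12 spanned less than a doubling over the 8 arrays. Ccnb2 was at 14.84 and 14.94 with both agents, 15.02 and 15.12 with IL-13, 14.92 and 14.94 with ATRA, and 15.05 and 15.11 in control, and Cdc20, an activator of the anaphase-promoting complex, had a difference of 0.00 ± 0.13 with both agents. Mki67, which encodes the proliferation antigen Ki-67, had the largest difference of this class. It reached 14.25 and 14.31 with both agents, 14.13 and 14.49 with IL-13, 14.62 and 14.49 with ATRA, and 14.82 and 14.65 in control. The 2 control arrays were the highest of the 8, the difference with both agents was −0.46 ± 0.16 (limma adjusted p = 0.144), and its second probe gave −0.51.

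The other mitosis genes lay on either side of control. With both agents, Ccnb1, another mitotic cyclin, was at 0.32 ± 0.15 and Aurka, a spindle kinase, at 0.31 ± 0.15, and the values with IL-13 were 0.35 ± 0.15 and 0.32 ± 0.15. Ccnb1, Aurka and Mki67 are thus examples of one class with differences of opposite sign, none of which passed the adjustment. Cdk1, the mitotic kinase, was at 0.06 ± 0.12 with both agents, 0.25 ± 0.12 with IL-13 and −0.12 ± 0.12 with ATRA. Its second probe gave −0.16, 0.32 and 0.15 in that order, so the sign with both agents and with ATRA depends on the probe. Bub1 and Bub1b, of the spindle checkpoint, had differences of 0.03 ± 0.15 and 0.18 ± 0.12 with both agents. With both agents Plk1, Aurkb, Top2a and Birc5 lay between −0.07 and 0.10.

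**Figure D2:**
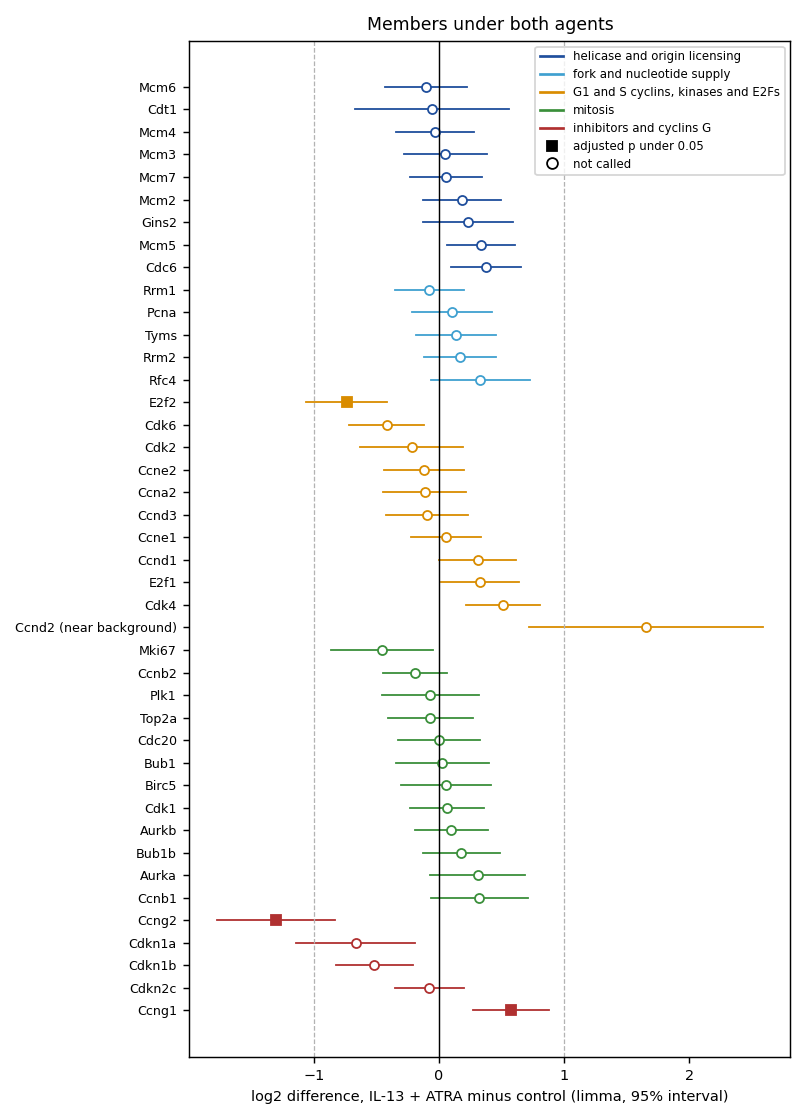
Fitted log2 difference of each member between both agents and control (points), with limma's 95% interval (lines), coloured by role and sorted within each role. Filled squares mark the 3 members called, E2f2, Ccng1 and Ccng2, and dashed lines mark a doubling or halving, which 38 of 42 intervals do not cross.

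Limma's 95% interval of the difference from control lay wholly within a doubling or halving for 38 of 42 members with both agents, for 40 with IL-13 and for 40 with ATRA. It lay within 1.5-fold for 23, 26 and 32 of them. The SE had a median of 0.13. These intervals bound the change that the arrays allow and do not show that levels were equal. Between both agents and ATRA alone, the most positive differences with 1 sign at both times were those of E2f1 (0.33 ± 0.12, adjusted p = 0.36), Ccnb1 (0.31 ± 0.15, adjusted p = 0.453) and Gins2 (0.27 ± 0.14, adjusted p = 0.472). The most negative were those of Ccng2 (−0.41 ± 0.19, adjusted p = 0.427), E2f2 (−0.40 ± 0.13, adjusted p = 0.309) and Cdkn1a (−0.36 ± 0.19, adjusted p = 0.473). Between both agents and IL-13 alone, Cdt1 (0.42 ± 0.24, adjusted p = 0.412) and Ccnd1 (0.28 ± 0.12, adjusted p = 0.299) were high and Cdkn1b was low (−0.42 ± 0.12, adjusted p = 0.164), none of them called. Without the 24 h IL-13 array Cdt1 was at 0.07 and Ccnd1 at 0.16, and without the 12 h IL-13 array Cdt1 was at 0.77. The largest differences between IL-13 and control that are not given elsewhere were those of Ccne2 (0.48 ± 0.13, adjusted p = 0.129) and Mki67 (−0.43 ± 0.16, adjusted p = 0.198; −0.21 without the 12 h and −0.65 without the 24 h IL-13 array).

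E2f2, an activating E2F factor, fell with both agents. It was at 12.40 at 12 h and 12.23 at 24 h with both agents, 12.76 and 12.58 with IL-13, 12.89 and 12.54 with ATRA, and 13.30 and 12.81 in control. At each time the array of both agents was the lowest and the control array the highest, with the single agents between them. The difference from control was −0.74 ± 0.13 with both agents (limma adjusted p = 0.0326), −0.38 ± 0.13 with IL-13 (adjusted p = 0.169) and −0.34 ± 0.13 with ATRA (adjusted p = 0.303). The sum of the single-agent differences was close to the combined one, and the interaction was −0.01, with a 95% interval from −0.47 to 0.44. E2f2 has 1 probe on the array, and its call was lost in 6 of 8 fits that left out 1 array (all but those without an IL-13 array), with values from −0.87 to −0.61. E2f1, the related factor, was at 0.32 ± 0.12 with both agents (adjusted p = 0.162), the opposite sign.

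Cdk4, the kinase partner of D-type cyclins, was highest with both agents but missed the threshold. It measured 13.23 and 13.35 with both agents, 13.13 and 13.19 with IL-13, 13.02 and 13.14 with ATRA, and 12.62 and 12.94 in control. Both control arrays were below every treated array, and the difference with both agents was 0.51 ± 0.12 (limma adjusted p = 0.0592). The alternatives other than leaving out an array gave adjusted p-values from 0.0194 to 0.256, and 3 of those 8 called it. Cdk6, the other partner, had the opposite sign: 12.45 and 12.23 with both agents, 12.39 and 12.36 with IL-13, 12.27 and 12.34 with ATRA, and 12.76 and 12.75 in control. The control arrays of Cdk6 were thus the 2 highest, with a difference of −0.42 ± 0.12 with both agents (adjusted p = 0.0943) and −0.45 ± 0.12 with ATRA (adjusted p = 0.16). Its other probes gave −0.32 and −0.02 with both agents.

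The cyclins of G1 and S phase gave 0 calls, beside 0.363% to 8.45% of all genes. Ccne2, an E-type cyclin, was at 9.33 and 9.40 with both agents, 9.83 and 10.09 with IL-13, 9.24 and 9.41 with ATRA, and 9.27 and 9.69 in control. The IL-13 arrays were the 2 highest, and the difference of both agents from IL-13 was −0.60 ± 0.13 (limma adjusted p = 0.0899), with −0.64 on its second probe. Ccne1, the other E-type cyclin, was at 0.06 ± 0.11 with both agents and 0.25 ± 0.11 with IL-13. With both agents Ccnd1 and Ccnd3, of the D type, were at 0.31 ± 0.12 and −0.10 ± 0.13, Ccna2, of the A type, at −0.11 ± 0.13, and Cdk2 at −0.22 ± 0.16.

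Ccnd2, a D-type cyclin, was well above background on 3 of 8 arrays, both ATRA arrays and 1 of 2 with both agents. It passed the filter only through the ATRA arrays, where it was high. Its levels were 4.05 and 3.37 with both agents, 2.74 and 1.87 with IL-13, 3.66 and 4.21 with ATRA, and 2.48 and 1.63 in control. The 4 arrays with ATRA in the medium were the highest of the 8. Because the control arrays give only a bound, computed against each array's lowest signal well above background, the level was at least 1.88-fold higher with ATRA than in control (limma adjusted p = 0.0857). On the same basis it was at least 1.61-fold higher with both agents than in control (adjusted p = 0.0564) and at least 1.5-fold higher than with IL-13 (adjusted p = 0.135). The bound rests on the background correction: with normexp correction the differences were 0.16 with ATRA and 0.20 with both agents against control, and 0.30 for both agents against IL-13 (adjusted p = 0.929, 0.662 and 0.548). For both agents against control, by contrast, the adjusted p was 0.0449 under quantile normalization, 0.0453 in the authors' deposited table, 0.0357 with the mean of all probes and 0.0147 without either ATRA array. Since the gene entered the test only through the arrays where it was high, neither these values nor the same sign on 2 further probes add support.

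The 5 inhibitors and G-type cyclins held 2 of the 3 calls with both agents, 1 in each direction, beside 3.01% of all genes called higher and 5.45% lower. Their median difference was −0.52 with both agents, −0.03 with IL-13 (0.01 under quantile normalization) and −0.31 with ATRA. For both agents it ranged from −0.64 to −0.46 under the 3 other scalings and the mean of all probes, with 4 of 5 genes lower each time. Over all genes, 8155 of 15439 were lower in sign with both agents under the main scaling. Ccng2, an unconventional cyclin known for high levels in arrested cells, fell most. It was at 7.05 at 12 h and 7.81 at 24 h with both agents, 8.46 and 8.96 with IL-13, 7.77 and 7.92 with ATRA, and 8.67 and 8.81 in control. All 4 arrays with ATRA were below all 4 without it. The difference of both agents was −1.31 ± 0.19 from control (limma adjusted p = 0.0208, −1.62 at 12 h and −0.99 at 24 h) and −1.28 ± 0.19 from IL-13 (adjusted p = 0.0396).

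With ATRA alone the difference of Ccng2 from control was −0.90 ± 0.19 (limma adjusted p = 0.0977), and with IL-13 alone it was −0.03 ± 0.19 (adjusted p = 0.938). The added effect of IL-13 over ATRA was −0.41, with a 95% interval from −0.88 to 0.06; it was −0.16 without the 12 h and −0.66 without the 24 h array of both agents, and −0.25 without the 12 h ATRA array. Ccng2 has 1 probe. Leaving out 1 array lost the call against control in 4 of 8 fits, those without a control array or an array of both agents, and the call against IL-13 in all 8, with values from −1.56 to −1.06 and from −1.53 to −1.03. Markers of another cell fate moved in the same arrays. The summed signal of 5 osteoclast markers was 737 to 1465 with both agents, 3721 to 4760 with IL-13, 314 to 410 with ATRA, and 1736 to 2217 in control, with 1 of the 5 on 0 arrays. The sum hides markers that differ: with both agents against control Acp5 rose by 2.67 on the log2 scale while Ocstamp (−1.40) and Dcstamp (−0.93) were not called, and with ATRA Ocstamp (−3.82) and Dcstamp (−2.06) fell while Acp5 (0.68) was not called. The summed signal of 4 dendritic cell markers was 1096 to 1280 with both agents, 1937 to 2235 with IL-13, 99.6 to 115 with ATRA, and 137 to 164 in control, and with ATRA Batf3 rose (0.99) while Itgax (−1.36) was not called. Itgax and Batf3 carry this sum. With IL-13 Itgax was at 10.68 and 10.83, against 6.51 and 6.57 in control. Batf3 was at 8.01 and 8.54 with IL-13, against 4.03 and 4.45. Over the 8 arrays Flt3 stayed between 3.12 and 3.85 and Zbtb46 between 4.17 and 5.05, so the markers did not rise as a set. The calls of these markers were not examined with an array left out. The part of the osteoclast and dendritic cell markers in the result was not tested.

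Ccng1, a G-type cyclin known as a target of p53, was the member that rose. It was at 11.84 and 12.06 with both agents, 11.79 and 11.92 with IL-13, 11.62 and 11.83 with ATRA, and 11.16 and 11.59 in control. The 2 control arrays were the lowest of the 8. The difference with both agents was 0.57 ± 0.12 (limma adjusted p = 0.0495), and it was 0.48 ± 0.12 with IL-13 (adjusted p = 0.121) and 0.35 ± 0.12 with ATRA (adjusted p = 0.262). The call sits at the threshold: all 8 fits that left out 1 array lost it, with values from 0.45 to 0.69. A second probe, also well above background on all 8 arrays, gave 0.32 with both agents, 0.08 with IL-13 and 0.23 with ATRA.

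The kinase inhibitors were not called, and those of the Cip/Kip family shared a sign. Cdkn1a was at 11.48 and 11.71 with both agents, 12.20 and 11.78 with IL-13, 11.85 and 12.06 with ATRA, and 12.32 and 12.20 in control. Cdkn1b was at 7.99 and 8.38 with both agents, 8.48 and 8.72 with IL-13, 8.33 and 8.42 with ATRA, and 8.64 and 8.77 in control. For each of these genes the array of both agents was the lowest at both times and the control array the highest. The differences with both agents were −0.67 ± 0.19 for Cdkn1a (limma adjusted p = 0.0925) and −0.52 ± 0.12 for Cdkn1b (adjusted p = 0.0622), and the other probes of Cdkn1b gave −0.41 and −0.99. Cdkn2c, an INK4-type inhibitor of Cdk4 and Cdk6, was at −0.08 ± 0.11 with both agents, 0.28 ± 0.11 with IL-13 and −0.05 ± 0.11 with ATRA.

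**Figure D3:**
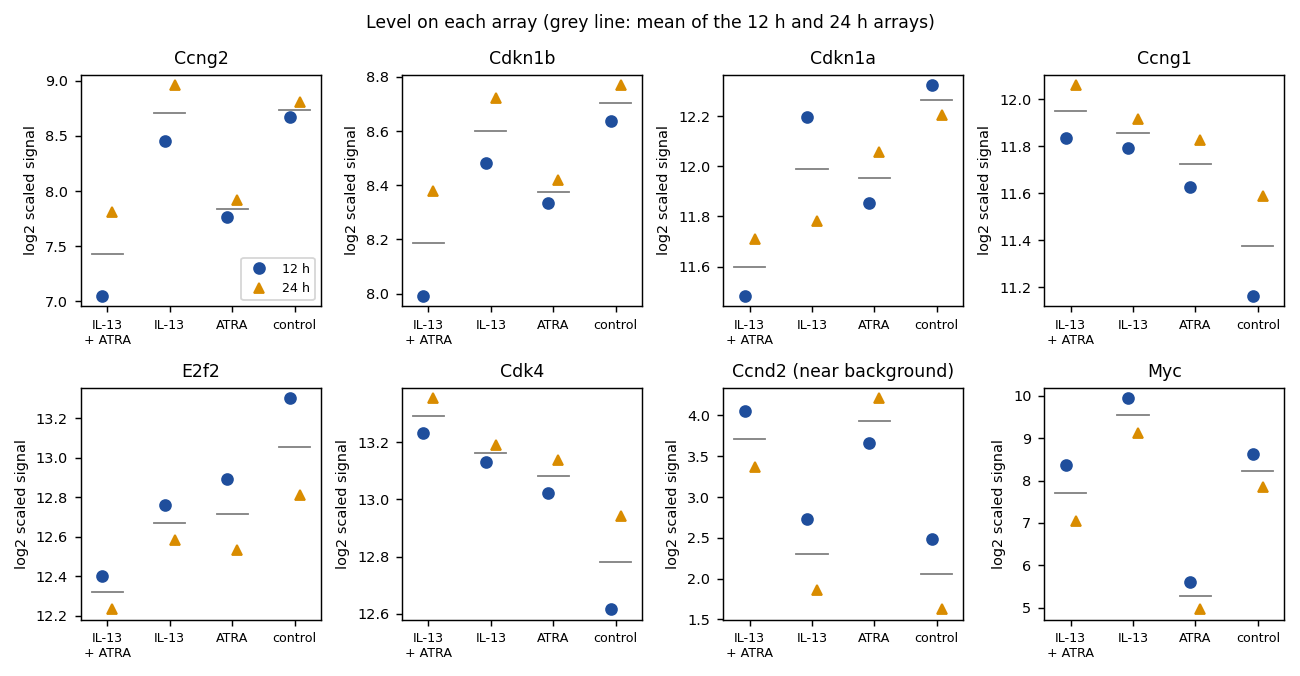
Level on every array (log2 scaled signal, each panel with its own axis) of 7 members and of Myc, at 12 h (circles) and 24 h (triangles), with grey lines at the mean of both times. In Ccng2 the 4 arrays with ATRA lie below the other 4, in E2f2 and Cdkn1b the array of both agents is the lowest at each time, and in Ccng1 and Cdk4 the control array is the lowest at each time.

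The promoters of the 3 members called are shown to set them beside the replication and mitosis promoters above. The 250 bases before the start of Ccng2 held 0 of the motifs searched, those of Ccng1 held 3 CCAAT matches (one read on the other strand, as ATTGG), and those at the first of 2 starts of E2f2 held 1 CCAAT match. The second start of E2f2, not printed, had 3 CCAAT matches and 1 CHR match before it.
Ccng2, chr5:93267323-93267572, plus strand: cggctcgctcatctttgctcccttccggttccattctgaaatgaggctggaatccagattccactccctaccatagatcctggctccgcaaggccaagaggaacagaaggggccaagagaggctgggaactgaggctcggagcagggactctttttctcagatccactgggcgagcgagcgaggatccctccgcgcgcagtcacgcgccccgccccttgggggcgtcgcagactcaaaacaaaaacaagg
Ccng1, chr11:40755287-40755536, minus strand: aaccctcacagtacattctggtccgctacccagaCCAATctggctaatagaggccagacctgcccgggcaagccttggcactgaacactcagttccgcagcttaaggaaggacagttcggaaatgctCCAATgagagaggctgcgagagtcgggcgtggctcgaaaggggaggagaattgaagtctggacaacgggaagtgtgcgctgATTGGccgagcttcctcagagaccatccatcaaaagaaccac
E2f2, chr4:136172024-136172273, plus strand: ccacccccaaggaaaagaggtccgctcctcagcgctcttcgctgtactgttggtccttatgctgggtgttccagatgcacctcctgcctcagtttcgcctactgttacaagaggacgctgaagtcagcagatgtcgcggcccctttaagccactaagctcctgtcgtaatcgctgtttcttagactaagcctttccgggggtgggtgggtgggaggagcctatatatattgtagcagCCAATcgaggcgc
Capitals again mark the matches, and their absence says only that these letters are not in the bases printed. The promoter window used for the shares above also takes in bases after the start. In that window E2f2 had 1 E2F match at whichever of its 2 starts held the most, and Ccng1 had 4 CCAAT matches. Ccng2 held 0 of the motifs there as well.

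Myc, a transcription factor that drives growth and binds E-boxes, is not one of the 42 and was chosen after its values were seen. It was at 8.37 and 7.05 with both agents, 9.94 and 9.13 with IL-13, 5.60 and 4.96 with ATRA, and 8.62 and 7.84 in control. It fell by 2.95 on the log2 scale with ATRA (limma adjusted p = 0.00897), and with both agents it was lower than with IL-13 by a difference of −1.83 (adjusted p = 0.0203) and higher than with ATRA by 2.43 (adjusted p = 0.0233). IL-13 alone against control gave 1.31 (limma adjusted p = 0.0513). Myc has 3 probes, and those not used are not given. Its calls were not examined with an array left out. On the same ATRA arrays Cdk4, known as a Myc target, had a difference from control of 0.30 ± 0.12 (limma adjusted p = 0.323), and the 9 licensing genes lay between −0.04 and 0.30. Whether Myc has a part in the level of any member was not tested. The 250 bases before the start of Cdk4 held 4 E-box matches (CACGTG, in capitals), at 172, 118, 98 and 11 bases before it. In the promoter window 4 of 35 matched members (11.4%) and 8.09% of all genes had at least 1. The remaining members with a match were Cdk6, Tyms and Cdkn2c, with differences of −0.45, 0.03 and −0.05 with ATRA against control.
Cdk4, chr10:127063285-127063534, plus strand: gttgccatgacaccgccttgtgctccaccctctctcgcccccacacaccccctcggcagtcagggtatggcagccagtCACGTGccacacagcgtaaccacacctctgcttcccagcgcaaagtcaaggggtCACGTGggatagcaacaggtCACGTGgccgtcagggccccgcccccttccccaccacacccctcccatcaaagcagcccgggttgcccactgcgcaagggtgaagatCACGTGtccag

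Among other genes of the same pathways, calls with both agents against control were made in the replication, G1 control and inhibitor lists, beside 3.01% of all genes called higher and 5.45% lower. The calls of these further genes were not examined with an array left out, and their other probes are not given. Of 37 further DNA replication genes 36 were tested, and with both agents 2 rose and 0 fell. Pola2, a subunit of DNA polymerase alpha, was at 8.35 and 8.57 with both agents, 8.26 and 8.24 with IL-13, 8.17 and 8.17 with ATRA, and 7.89 and 7.82 in control, a difference from control of 0.60 ± 0.12 (limma adjusted p = 0.0433). Pold2, of DNA polymerase delta, was at 10.95 and 11.21 with both agents, 10.81 and 10.74 with IL-13, 10.67 and 10.76 with ATRA, and 10.30 and 10.51 in control, a difference of 0.68 ± 0.13 (adjusted p = 0.0364). In both genes the 2 control arrays were the lowest of the 8. The 36 genes had a median of 0.24 with both agents, 0.23 with IL-13 and 0.04 with ATRA. With IL-13, 30 of 36 were higher in sign, beside 7685 of 15439 over all genes. Under quantile normalization the medians were 0.14, 0.17 and 0.006, with 27 of 36 higher with IL-13. The 42 further mitosis genes gave 0 calls in any treatment comparison, beside 0.363% to 8.45% of all genes. Of the 42, 34 were lower in sign with ATRA, beside 8205 of 15439 over all genes. Their median with ATRA was −0.12 (28 lower and a median of −0.06 under normexp correction).

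Of 17 further genes of G1/S control 16 were tested, and Rb1, which encodes the retinoblastoma protein, was the 1 called. It was at 9.18 and 9.24 with both agents, 9.44 and 9.71 with IL-13, 9.78 and 9.65 with ATRA, and 10.15 and 9.96 in control. It fell with both agents, with a difference of −0.85 ± 0.15 (limma adjusted p = 0.0332). Of 20 further inhibitors and p53 targets 17 were tested, and with both agents 0 rose and 3 fell. Btg1 and Btg2 are antiproliferative genes, and Gadd45g is a stress-response gene. Btg1 was at 12.82 and 12.98 with both agents, 13.79 and 13.72 with IL-13, 13.19 and 13.41 with ATRA, and 13.90 and 14.11 in control, a difference from control of −1.10 ± 0.12 (adjusted p = 0.0115).

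As in Ccng2, all 4 Btg1 arrays with ATRA lay below the 4 without it, and the difference of both agents from IL-13 was −0.85 ± 0.12 (limma adjusted p = 0.0383). Gadd45g was at 11.84 and 11.36 with both agents, 12.87 and 12.73 with IL-13, 11.49 and 11.50 with ATRA, and 12.97 and 12.78 in control. It fell with both agents (−1.27 ± 0.15, adjusted p = 0.0121) and with ATRA (−1.38 ± 0.15, adjusted p = 0.0275) against control, and with both agents against IL-13 (−1.20 ± 0.15, adjusted p = 0.0281). Btg2 was at 8.07 and 8.10 with both agents, 8.55 and 8.44 with IL-13, 8.45 and 8.66 with ATRA, and 8.65 and 8.80 in control. Its difference with both agents was −0.64 ± 0.12 (adjusted p = 0.0408), and the arrays of both agents were the 2 lowest.

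**Figure D4:**
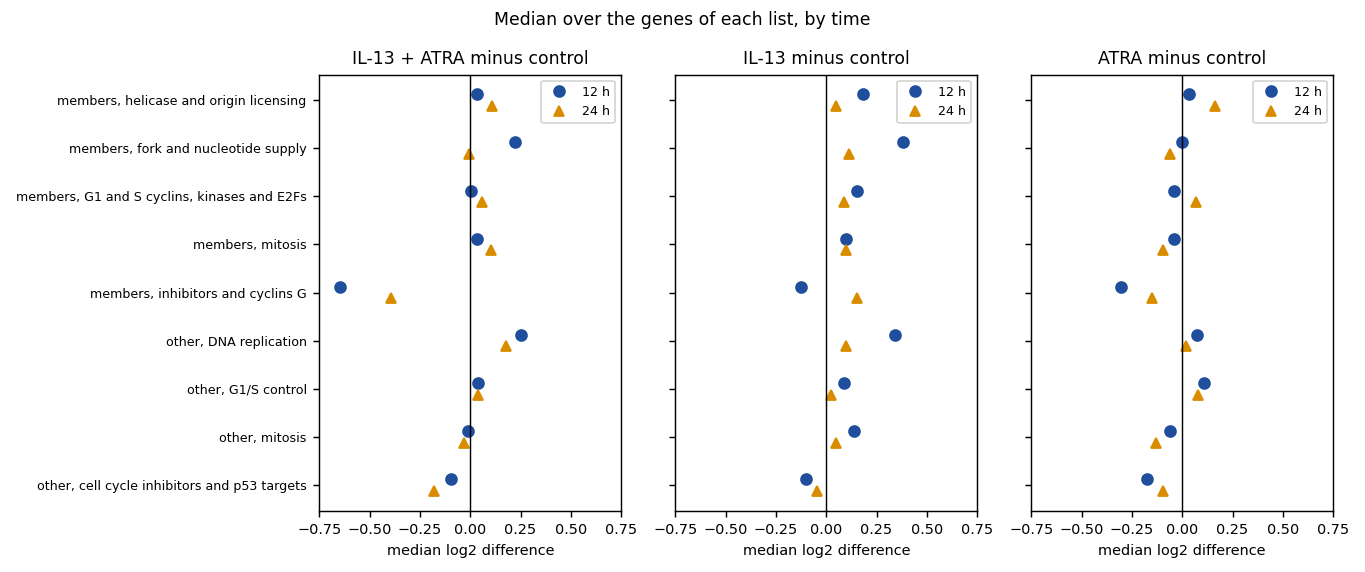
Median log2 difference from the control array of the same time (x axis) over the members of each role and over the further genes of each pathway (rows), at 12 h (circles) and 24 h (triangles), for both agents, IL-13 and ATRA. The members' inhibitors and G-type cyclins lie at −0.65 and −0.39 with both agents, and the other rows lie between −0.18 and 0.25 in that panel.

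Between 12 h and 24 h, 0 members were called, as were 0 of all genes (0%), with 4 members higher and 2 lower at an unadjusted p under 0.05, which 4.75% and 7.41% of all genes passed in those directions. The lowest p was that of E2f2, which was lower at 24 h in all 4 treatments, with a fitted difference of −0.30 ± 0.09 (limma adjusted p = 0.367). A model with all pairwise interactions found 0 members whose response to IL-13 or to ATRA differed between the times, and 0% of all genes. The member with the lowest p for ATRA was Cdt1, whose ATRA effect was 0.66 larger at 24 h (limma adjusted p = 0.506). For Ccng2 the IL-13 difference was more positive at 24 h by 0.49 (limma adjusted p = 0.495), which is not a larger effect. At 12 h Ccng2 was at 8.46 with IL-13 against 8.67 in control, and at 7.05 with both agents against 7.77 with ATRA. At 24 h these pairs were 8.96 against 8.81 and 7.81 against 7.92. That model leaves 1 residual degree of freedom.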

How the data were processed

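Total RNA of 8 RAW264.7 samples was hybridized to one-colour Agilent arrays. Per the file headers, the authors extracted the signals with Agilent Feature Extraction 10.7.1.1. The processed signals are in the unit intensity and were deposited after background subtraction with no scaling between arrays. Per the file headers each spot also has 0 or 1 flags (other values), of which those for outlying and non-uniform spots, saturation and well above background were used. The authors' deposited table of log2 values, whose columns share the range 0.752 to 18.2 and whose method is not given in the sources used here, served as an alternative.

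Outlying spots of 41174 probes were dropped, repeats averaged, and each array scaled to its 75th percentile before log2. The 49 probes with a missing value were left out. A probe stayed if some treatment had it well above background at 12 h and at 24 h (24016 probes), and the probe of highest mean signal stood for each of 15439 genes. The 42 members had 67 probes, and 41 of the 42 genes were well above background on all 8 arrays. Names came through RefSeq accessions (27668 probes), symbols (5589), synonyms (471) or the deposited annotation (7446).

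Limma 3.58.1 in R 4.3.3 fitted treatment and time, with 3 residual degrees of freedom, and ± gives its SE. The labels give the time and the headers the slide, and these coincide, so the time term pairs the arrays. The labels number no replicates, and the replicate block named below is this time term. The fit was tested on simulated data. Members, lists and tests were chosen with earlier results of these data known. Members given with their tests are those called, plus the 3 highest and 3 lowest with 1 sign at both times in each treatment comparison; the others have values only or were added for their role. Marker genes were also summed for T and B cells, of which 1 of 5 was well above background on all 8 arrays. Motifs were searched on both strands, over all starts of a gene. Alternatives were quantile normalization, normexp background correction, the authors' table, 2 other filters, no time term, trend and robust moderation, the mean of a gene's probes, and leaving out each array.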

Additional observations from a re-analysis of the deposited data

How the results depend on the processing

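No difference of a named gene examined for this changed sign under the 8 alternatives or when an array was left out. The genes examined were those called or picked for a large difference with 1 sign at both times. That choice favours a kept sign, which therefore adds no support. With both agents against control, the number of members called was 0 when dim probes stayed in, 5 with a filter for all 8 arrays, 1 (Ccng2) with no replicate block (no time term) and 7 with trend and robust moderation, against 3. Ccng2 was called in 7 of those 8 alternatives, all but the one that keeps dim probes, which raises the number of genes tested to 27321. Against IL-13 the count was 0 with dim probes kept, 0 without the replicate block and 2 with trend and robust moderation, against 1. With ATRA it was 1 under normexp correction and 1 with trend and robust moderation (Ccng2, lower), and 1 with the mean of all probes (Ccnd2, higher). Over all genes, ATRA gave 166 higher and 202 lower under normexp correction, and 139 and 156 with the mean of all probes. With the filter for all 8 arrays, 568 of 13681 genes were called higher and 921 lower with both agents against control. Over all genes, both agents against control gave 1305 calls, 1131 without the replicate block, 28 with dim probes kept and 2023 with trend and robust moderation. The last pair was 1 and 611 with IL-13 (against 197), 0 and 621 with ATRA (against 278), and 7 and 817 for both agents against IL-13 (against 398). Leaving out 1 array gave 0 to 2 members called with both agents against control (0 without either control array or either array of both agents), 0 to 1 against IL-13 (0 without a control, IL-13 or combined-treatment array; the 1 called without an ATRA array was Ccnd2), and 0 to 1 with ATRA (Ccnd2, without the 12 h ATRA array). The remaining lone array was then assumed to vary like the other treatments. The median over members was 0.049 under quantile normalization and 0.052 in the authors' table with IL-13, −0.049 and −0.048 with ATRA, and −0.044 and −0.047 with both agents against control, where the mean of all probes gave 0.022. For both agents against ATRA it was 0.0012, 0.00093 and 0.012 under those 3 settings. Leaving out 1 array gave medians of 0.049 to 0.19 with IL-13, 0.010 to 0.072 with both agents against control and 0.00093 to 0.10 with both agents against ATRA. The causes of these shifts were not tested. With 2 arrays per treatment, small differences of a single gene are below what the test can call, and signal near background limits Ccnd2.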
